A study of Saccharomyces cerevisiae with 6 samples.

Results

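The 40 genes described here encode enzymes of arginine, histidine, branched-chain, aromatic and threonine synthesis in the yeast Saccharomyces cerevisiae, with the transport protein gene ORT1 and the regulator gene GCN4. They were chosen by name: 8 genes of the arginine pathway, 7 of histidine, 10 of the branched-chain amino acids, 9 of the aromatic amino acids, 5 of threonine, and GCN4. All 40 had a single gene model among the 5625 of the table, and all 40 were above the filter on low values that left 5459 genes for testing. The genes of lysine and of sulfur amino acid synthesis are not among them.

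RNA with poly(A) tails was sequenced from 2 aerobic cultures of each of 3 strains. The labels call the bioreactor cultures of IMX605 and IMX606 biological duplicates and number the IMX372 samples as replicates without a culture protocol of their own. In IMX605 the genes of glycolysis were expressed from 1 locus on chromosome V (libraries R12 and R7), in IMX606 from 1 locus on chromosome IX (libraries R13 and R8). In IMX372, labelled MG, they stood at their native loci (libraries DSE001 and DSE002). The medium of the single-locus strains is given as SMD, and neither its amino acid content nor the auxotrophic marker alleles of the strains are stated in the labels. The IMX372 libraries were taken over from an earlier deposit, so strain and library set cannot be told apart in any difference from IMX372. The strains also differed in URA3, a uracil synthesis gene that is no member, at 9506 ± 363 FPKM (SD, n = 2) in IMX605 cultures and 10336 ± 800 FPKM (SD, n = 2) in IMX606 cultures, where IMX372 cultures had 263.2 ± 18.6 FPKM (SD, n = 2).

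Yeast makes all of these amino acids itself from intermediates of glycolysis, the pentose phosphate pathway and the citric acid cycle. Most of the enzyme genes are targets of Gcn4, a leucine zipper activator whose messenger RNA is translated more when charged transfer RNA runs short. Single pathways have further switches of their own, such as Leu3 for the leucine and isoleucine-valine genes and the ArgR complex for the arginine genes. End products inhibit the first enzymes of their pathways directly, so transcript levels are only 1 layer of this control.

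Levels are given in FPKM, fragments per kilobase of gene model, scaled to the reads on genes of each library, and differences as log2 of FPKM + 1 (the scale of every difference below), which understates changes of low genes. A gene was called where limma gave a Benjamini-Hochberg adjusted p under 0.05 over all tested genes. The libraries held 18754741 to 21370278 reads on genes, except IMX372 DSE001 with 70510681. The thinnest measurement among the members, BAT2 in IMX372 DSE002, rested on 728 reads. Of the 40 genes, 0 overlapped another gene model and 0 had an opposite-strand neighbour at 10 times its level within 500 bases. Among the genes of the S288C reference 0 had a near-identical copy, a search that cannot see copies particular to the strains used here.

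The 40 genes together took 2.63% to 2.83% of the reads on genes in the 6 libraries. Their summed level was 20176 and 20422 FPKM in IMX605 and 20164 and 21356 FPKM in IMX606, against 21259 and 20966 FPKM in IMX372. The IMX605 sums lay below both IMX372 sums, by a few percent, and those of IMX606 lay on either side of them. By pathway, the arginine genes summed to 106.8% of the IMX372 mean in IMX605 and 114.0% in IMX606, and the branched-chain genes to 98.7% in IMX605 and 99.5% in IMX606. The histidine genes summed to 91.3% in IMX605 and 96.1% in IMX606, and the threonine genes to 90.0% in IMX605 and 91.7% in IMX606. The aromatic genes summed to 89.3% in IMX605 and 93.5% in IMX606, but ARO4 alone lost more FPKM than this sum did. From IMX372 to IMX605, mean ARO4 went from 932 to 604 FPKM and the mean aromatic sum from 2698 to 2408. The IMX606 means were 666 for ARO4 and 2523 for the sum. Of the 9 aromatic log2 differences, 5 were positive and 4 negative in IMX605, and 6 positive and 3 negative in IMX606. ILV5, the reductoisomerase of isoleucine and valine synthesis, had the highest mean over all libraries, at 2749 FPKM, followed by GCN4 at 1896 and HIS1 at 1190. BAT2 at 61.2 FPKM, ARO1 at 71.1 and HIS6 at 77.7 were the lowest. Among members without a call, the levels ran from 67.6 FPKM (HIS6 in IMX605 R7) to 2939.6 FPKM (ILV5 in IMX372 DSE001).

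In IMX605 against IMX372, limma called 6 of the 40 genes higher and 4 lower at an adjusted p under 0.05, which is 25.0% of them, while 30.0% of all tested genes were called, 15.0% higher and 15.0% lower. Against IMX372 in IMX606, 7 were higher and 2 lower, or 22.5%, where 23.9% of all tested genes were called, 11.1% higher and 12.8% lower. The share of these genes that was called was thus near that of all tested genes in both comparisons. By pathway, the share called against IMX372 ran from 14.3% (histidine) to 33.3% (aromatic) in each single-locus strain. The counts by pathway below are to be read beside the 30.0% and 23.9% of all tested genes, and were not tested against them. Their median log2 difference was 0.03 in IMX605 and 0.07 in IMX606, beside medians of -0.03 (IMX605) and -0.06 (IMX606) over all tested genes. Between IMX605 and IMX606, limma called 0 of the 40, with 0.202% of all tested genes called, and 0 had an unadjusted p under 0.05. Voom on the recovered reads also called 0 there. Lack of overlap between cultures was common among all genes: 31.5% of tested genes had both IMX605 values above both of IMX372 and 37.8% had both below, and for IMX606 the shares were 25.7% above and 36.7% below. Among the 40 members, 14 lay above and 16 below in IMX605, and 18 above and 9 below in IMX606. In all, 11 members were called in at least 1 comparison, with BAT2 and ARO1 having the largest rises and ARO4 the largest fall.

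**Figure D1:**
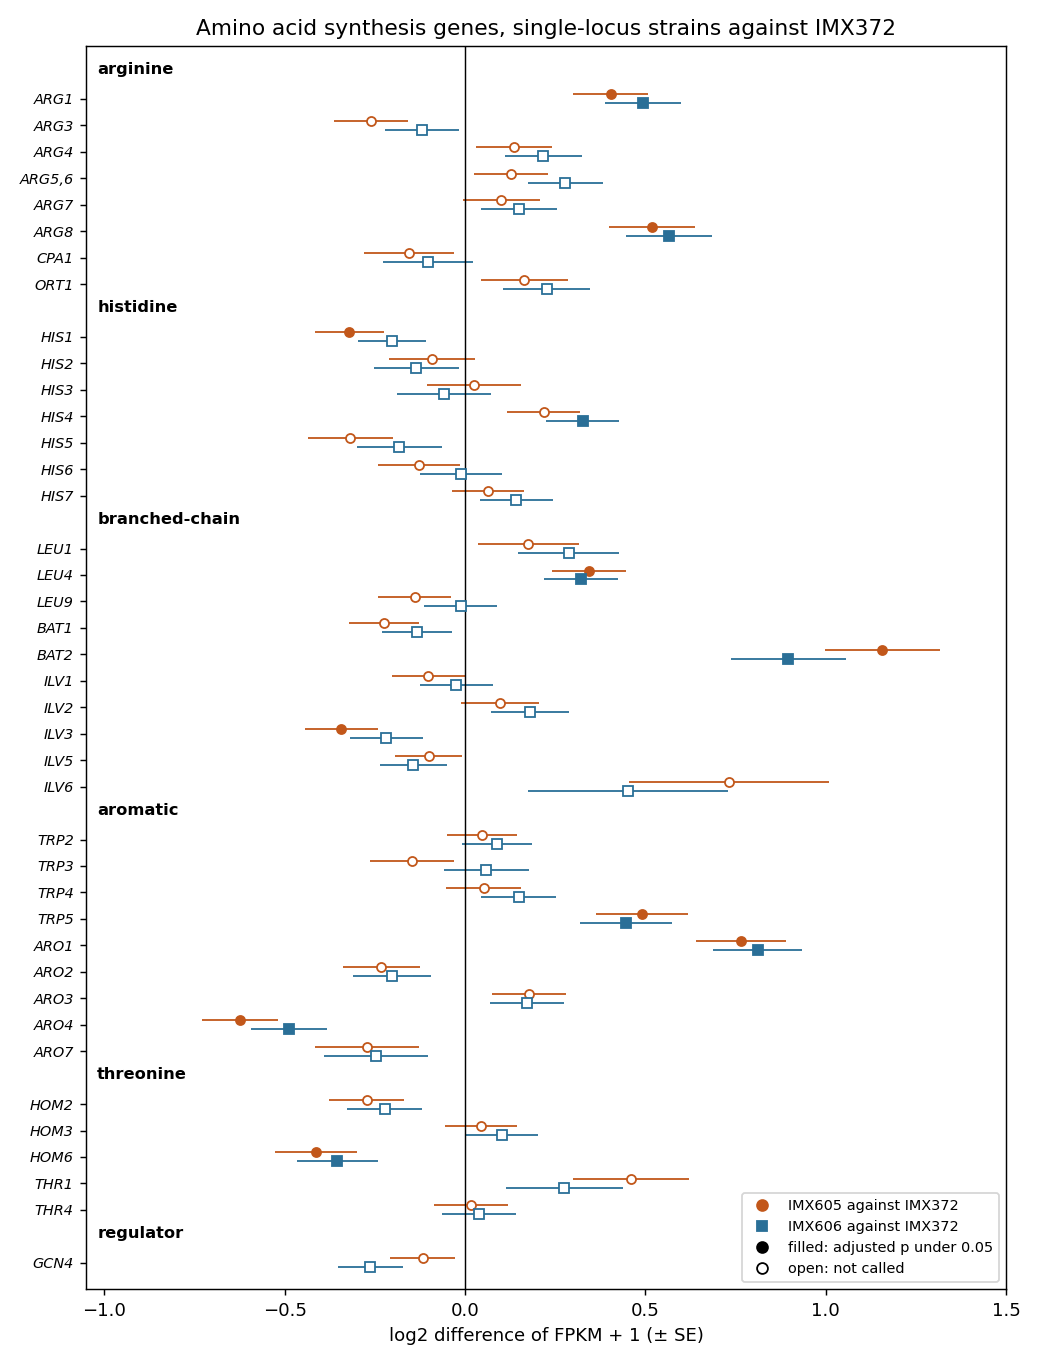
Log2 differences of FPKM + 1 with their standard errors for the 40 genes, ordered by pathway, in IMX605 against IMX372 (circles) and IMX606 against IMX372 (squares). Filled symbols passed an adjusted p under 0.05 by limma, and the largest value is BAT2 in IMX605 at 1.16.

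The arginine pathway starts in the mitochondrion with acetylated glutamate and ends in the cytosol, where argininosuccinate is made and split. Of its 8 genes, 2 rose and 0 fell in each single-locus strain. ARG1, argininosuccinate synthetase (chromosome 15, 213174 to 214436 on the CEN.PK113-7D sequences of the table), had 1133 and 1200 FPKM in IMX605 and 1152 and 1336 FPKM in IMX606, against 907 and 856 FPKM in IMX372. All 4 single-locus cultures lay above both IMX372 cultures, and ARG1 rose by 0.40 in IMX605 (SE 0.10, adjusted p = 0.0137) and 0.49 in IMX606 (SE 0.10, adjusted p = 0.00585) by limma. ARG8, acetylornithine aminotransferase, read 162.1 and 137.8 FPKM in IMX605 and 165.7 and 144.4 FPKM in IMX606, against 101.4 and 107.0 FPKM in IMX372. The ARG8 groups did not overlap either, and the gene rose by 0.52 (adjusted p = 0.00763) in IMX605 and 0.57 (adjusted p = 0.00565) in IMX606 by limma.

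The other 6 genes of the arginine group did not pass in either strain. ARG3, ornithine carbamoyltransferase, the enzyme just before ARG1, had 667 and 658 FPKM in IMX605 and 691 and 772 FPKM in IMX606, against 752 and 838 FPKM in IMX372. The IMX605 values lay below IMX372 and those of IMX606 overlapped it, with log2 differences of -0.26 in IMX605 and -0.12 in IMX606. ARG3 was called lower in IMX605 with equal FPKM sums (adjusted p = 0.0466) and with quantile normalization (0.0208). ARG5,6, which encodes both acetylglutamate kinase and the reductase after it, stood at 0.13 in IMX605 and 0.28 in IMX606, the lyase gene ARG4 at 0.14 in IMX605 and 0.22 in IMX606, and the acetyltransferase gene ARG7 at 0.10 in IMX605 and 0.15 in IMX606. ORT1, the exporter of ornithine from the mitochondrion, stood at 0.16 in IMX605 and 0.23 in IMX606, and CPA1, the small subunit of carbamoyl phosphate synthetase, at -0.16 in IMX605 and -0.10 in IMX606. ARG5,6 was called higher in IMX606 with median-of-ratios factors (adjusted p = 0.0343) and by voom (0.0396). The ARG1 call ended in IMX605 without IMX605 R7 (adjusted p = 0.0950) or IMX372 DSE002 (0.101) and in IMX606 without IMX372 DSE002 (0.0668). That of ARG8 ended in IMX605 without R12 (0.0839) or IMX372 DSE001 (0.0551) and held in all 17 alternative settings in IMX606.

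Of the 7 histidine genes, 1 fell in IMX605 and 1 rose in IMX606. HIS1 encodes the ATP phosphoribosyltransferase of the first step. It had 1083 and 1058 FPKM in IMX605 and 1110 and 1216 FPKM in IMX606, against 1331 and 1344 FPKM in IMX372. All 4 single-locus values lay below both of IMX372. HIS1 fell by 0.32 in IMX605 (SE 0.10, limma adjusted p = 0.0255), and its difference of -0.20 in IMX606 did not pass (limma adjusted p = 0.144). Between IMX605 and IMX606 the difference was -0.12 (limma adjusted p = 0.998). HIS4, a protein with 3 catalytic activities of the pathway, had 515 and 524 FPKM in IMX605 and 539 and 581 FPKM in IMX606, against 472 and 423 FPKM in IMX372. The groups did not overlap. HIS4 rose by 0.33 in IMX606 (SE 0.10, limma adjusted p = 0.0390), and its difference of 0.22 in IMX605 did not pass (limma adjusted p = 0.128).

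HIS5, the aminotransferase, stood at -0.32 in IMX605 and -0.18 in IMX606, and neither value passed. In IMX605 it was called lower in 6 of 17 alternative settings, voom (adjusted p = 0.0416) and equal FPKM sums (0.0365) among them. HIS2, the phosphatase of the step before the last, HIS3, the dehydratase, HIS6, the isomerase, and HIS7, the amidotransferase and cyclase, lay between -0.13 and 0.14 in both strains. HIS3 had 532 and 532 FPKM in IMX605 and 485 and 520.1 FPKM in IMX606, against 606 and 451.5 FPKM in IMX372, whose cultures lay on either side of all the others. The HIS1 call held in 10 of 17 alternative settings and ended without any one of the 4 libraries compared (R12 0.0886, R7 0.140, DSE001 0.0759, DSE002 0.106). That of HIS4 held in 9 of 17 and ended, among others, without IMX606 R8 (0.142), IMX372 DSE002 (0.204), IMX605 R12 (0.0591) or IMX605 R7 (0.0586).

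Of the 10 branched-chain genes, 2 rose and 1 fell in IMX605, and 2 rose in IMX606. The largest rise was that of BAT2, the cytosolic branched-chain aminotransferase (chromosome 10, 700710 to 701840). It had 68.3 and 93.9 FPKM in IMX605 and 59.3 and 75.0 FPKM in IMX606, against 37.1 and 33.7 FPKM in IMX372. The lowest single-locus culture thus stood above the highest IMX372 culture. BAT2 rose to 229% of the IMX372 mean in IMX605 (1.16, SE 0.16, limma adjusted p = 0.000279) and to 189.6% in IMX606 (0.90, SE 0.16, limma adjusted p = 0.00202). Both calls held in all 17 alternative settings. BAT1, the mitochondrial isoenzyme and by far the more abundant transcript, read 966 and 997 FPKM in IMX605 and 987 and 1107 FPKM in IMX606, against 1151 and 1142 FPKM in IMX372. All 4 single-locus values lay below IMX372, and the differences of -0.22 in IMX605 and -0.13 in IMX606 did not pass.

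LEU4 and LEU9 encode the isoenzymes of alpha-isopropylmalate synthase, which commits carbon to leucine. LEU4 had 460 and 494 FPKM in IMX605 and 445 and 495 FPKM in IMX606, against 381 and 369.7 FPKM in IMX372. All 4 single-locus values lay above IMX372, and LEU4 rose by 0.34 (limma adjusted p = 0.0259) in IMX605 and 0.32 (limma adjusted p = 0.0408) in IMX606. LEU9 had 147.5 and 144.0 FPKM in IMX605 and 156.8 and 161.8 FPKM in IMX606, against 154.8 and 166.7 FPKM in IMX372. LEU9 had no call, and its IMX606 values overlapped those of IMX372. LEU4 and LEU9 are 83.3% identical over 1497 bases, below the 95% set for near-identical copies. LEU1, the isomerase of the next step, stood at 0.18 in IMX605 and 0.29 in IMX606 without a call, and was called in IMX606 without R13 (0.48, adjusted p = 0.0191). The LEU4 call ended in IMX605 without R12 (0.0638), R7 (0.180), DSE001 (0.0690) or DSE002 (0.119). In IMX606 it held in 10 of 17 alternative settings and ended without any single library except R13.

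Among the isoleucine and valine genes, ILV3, dihydroxyacid dehydratase, had 545 and 530.0 FPKM in IMX605 and 577 and 596 FPKM in IMX606, against 727.9 and 639.6 FPKM in IMX372, with no overlap. ILV3 fell by 0.34 in IMX605 (SE 0.10, limma adjusted p = 0.0254), and its difference of -0.22 in IMX606 did not pass (limma adjusted p = 0.142). The ILV3 call was lost under median-of-ratios factors (adjusted p = 0.0663), with the length trend removed (0.114), and without R12 (0.0853), R7 (0.140) or DSE001 (0.132). ILV1, threonine deaminase, ILV2, the catalytic subunit of acetolactate synthase, and ILV5 lay between -0.14 and 0.18 in both strains.

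ILV6, the regulatory subunit of acetolactate synthase, differed between cultures of the same strain. It had 552 and 487 FPKM in IMX605 and 615 and 296 FPKM in IMX606, against 389 and 249.7 FPKM in IMX372. Both IMX605 values lay above IMX372, and the IMX606 values overlapped it. The gap of 1.05 on the log2 scale between R13 and R8 was exceeded by 0.366% of all tested genes, and the gap of 0.64 between the IMX372 libraries by 0.348%. The differences of 0.73 in IMX605 (limma adjusted p = 0.0662) and 0.45 in IMX606 (limma adjusted p = 0.258) did not pass. ILV6 was called in IMX605 by voom (0.70, adjusted p = 0.0408) and in a fit of the 2 strains alone (0.73, adjusted p = 0.000575), as well as without R13 or R8. It was also called in IMX606 without R8 (0.98, adjusted p = 0.000374) and between IMX605 and IMX606 without R13 (0.81, adjusted p = 0.0239). ILV2, its catalytic partner, showed no such gap, with 413 and 425 FPKM in IMX605 and 409 and 481 FPKM in IMX606, against 402 and 381 FPKM in IMX372.

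**Figure D2:**
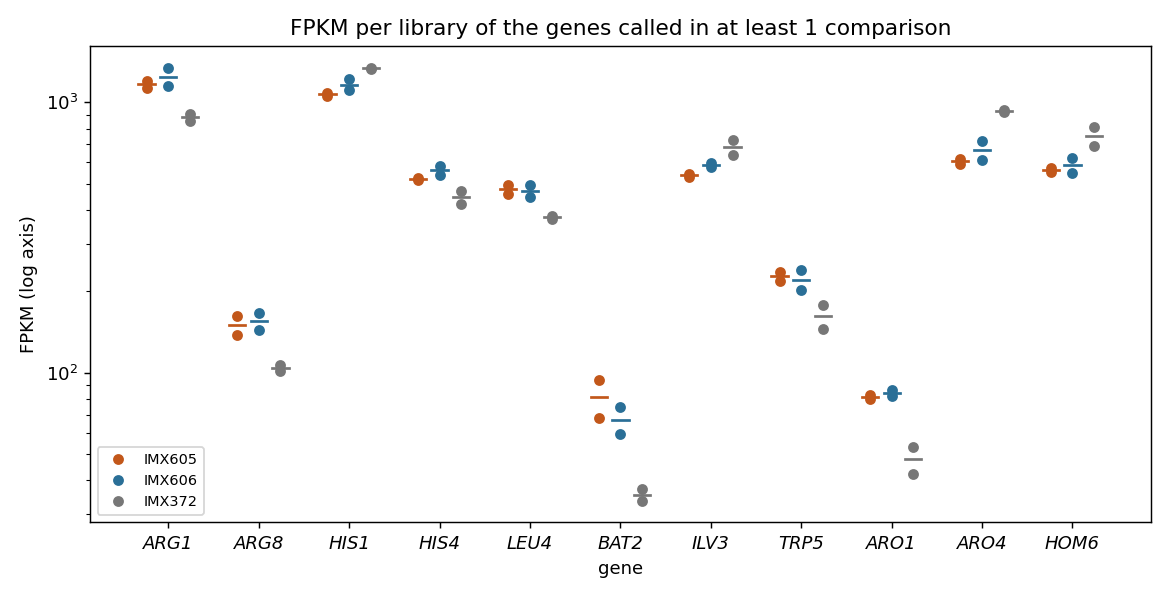
FPKM on a log axis in each library for the 11 genes called in at least 1 comparison; dots are libraries, bars are strain means, n = 2 each. BAT2 and ARO1 have their 4 single-locus libraries above both IMX372 libraries, and ARO4 has them below.

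Of the 9 aromatic genes, 2 rose and 1 fell in each single-locus strain. ARO1 encodes the 1 protein that carries out the central steps of the shikimate route (chromosome 4, 683904 to 688670). It had 82.9 and 79.95 FPKM in IMX605 and 86.4 and 81.9 FPKM in IMX606, against 53.3 and 42.3 FPKM in IMX372. Its groups did not overlap, and it rose by 0.76 in IMX605 (SE 0.12, limma adjusted p = 0.000941) and 0.81 in IMX606 (SE 0.12, limma adjusted p = 0.000726). ARO1 is the longest member, with 4767 bases. Among the 195 tested genes longer than 4000 bases, the median difference was 0.32 in IMX605 and 0.30 in IMX606. With the length trend removed, ARO1 stood at 0.50 in IMX605 (adjusted p = 0.0170) and 0.55 in IMX606 (adjusted p = 0.0144), and its calls held in all 17 alternative settings in both strains.

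ARO3 and ARO4 are the isoenzymes of DAHP synthase, the entry to the route, where Aro3 is inhibited by phenylalanine and Aro4 by tyrosine. ARO4 (chromosome 2, 710452 to 711564) had 592 and 617 FPKM in IMX605 and 612 and 720.5 FPKM in IMX606, against 940 and 924 FPKM in IMX372. All 4 single-locus values lay below both of IMX372. ARO4 fell to 64.8% of the IMX372 mean in IMX605 (-0.62, SE 0.11, limma adjusted p = 0.00120) and to 71.5% in IMX606 (-0.49, SE 0.11, limma adjusted p = 0.00667). The call held in all 17 alternative settings in IMX605, and in IMX606 it was lost on leaving out DSE002 (adjusted p = 0.0523). ARO3 had 357.5 and 382.0 FPKM in IMX605 and 351.5 and 386.3 FPKM in IMX606, against 316.9 and 337.3 FPKM in IMX372. The groups did not overlap, in the direction opposite to ARO4. The ARO3 differences of 0.18 in IMX605 and 0.17 in IMX606 did not pass, and passed with the length trend removed (0.28 in IMX605, adjusted p = 0.0491, and 0.30 in IMX606, adjusted p = 0.0461). HIS7, the neighbour of ARO4 on the same strand, stood at 0.06 in IMX605 and 0.14 in IMX606.

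Of the later aromatic genes, TRP5, tryptophan synthase, was called. It had 235 and 219 FPKM in IMX605 and 239 and 203 FPKM in IMX606, against 178.6 and 145.7 FPKM in IMX372, without overlap. TRP5 rose by 0.49 in IMX605 (limma adjusted p = 0.0139) and 0.45 in IMX606 (limma adjusted p = 0.0261). ARO2, chorismate synthase, stood at -0.23 in IMX605 and -0.20 in IMX606, and ARO7, the chorismate mutase that leads to phenylalanine and tyrosine, at -0.27 in IMX605 and -0.25 in IMX606, without calls. ARO7 was called lower without IMX372 DSE001 (adjusted p = 0.0282 in IMX605 and 0.0396 in IMX606). TRP2, TRP3 and TRP4, which act between chorismate and TRP5, lay between -0.15 and 0.15 in both strains. The TRP5 call ended in both strains without IMX372 DSE002 (adjusted p = 0.132 in IMX605 and 0.202 in IMX606). It also ended in IMX605 without R12 (0.0794) and in IMX606 without R13 (0.118), without the filter on low values (0.0687) and with the length trend removed (0.0586).

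The threonine genes convert aspartate through homoserine, the branch point towards methionine. Of these 5 genes, 1 fell and 0 rose in each single-locus strain. HOM6, homoserine dehydrogenase, had 552 and 569 FPKM in IMX605 and 547 and 625 FPKM in IMX606, against 689 and 810.2 FPKM in IMX372. It fell by 0.41 (SE 0.11, limma adjusted p = 0.0175) in IMX605 and 0.35 (SE 0.11, limma adjusted p = 0.0412) in IMX606, without overlap. HOM2, the dehydrogenase just before it, had 759.7 and 787 FPKM in IMX605 and 744 and 862 FPKM in IMX606, against 958 and 912 FPKM in IMX372. Its groups did not overlap, and the differences of -0.27 in IMX605 and -0.22 in IMX606 did not pass. In IMX605 HOM2 was called lower in 6 of 17 alternative settings, with voom (adjusted p = 0.0417) and quantile normalization (0.0193) among them.

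HOM3, the aspartate kinase that opens the pathway, and THR4, the threonine synthase that closes it, lay between 0.02 and 0.10 in both strains. THR1, homoserine kinase, had 308 and 280.4 FPKM in IMX605 and 309.6 and 216 FPKM in IMX606, against 238 and 191 FPKM in IMX372. The IMX606 values overlapped IMX372. The THR1 difference of 0.46 in IMX605 had an adjusted p of 0.0510 by limma, with calls by voom (0.0323) and in a fit of the 2 strains alone (0.00473), and that of 0.27 in IMX606 one of 0.241. In IMX606 the difference was 0.53 without R8, with a call (adjusted p = 0.0108), and 0.02 without R13. The THR1 gap between IMX606 R13 and R8 was 0.52 on the log2 scale, in the same direction as that of ILV6. The HOM6 calls ended with the length trend removed (adjusted p = 0.0533 in IMX605 and 0.168 in IMX606) and without IMX372 DSE002 (0.146 in IMX605 and 0.257 in IMX606). They also ended without IMX605 R12 (0.0829 in IMX605 and 0.0532 in IMX606) or IMX605 R7 (0.0638 in IMX605 and 0.0528 in IMX606). The HOM6 call held in 13 of 17 alternative settings in IMX605 and 8 of 17 in IMX606, where it also ended without R13 (0.190).

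GCN4 (chromosome 5, 139829 to 140674) had 1871 and 1934 FPKM in IMX605 and 1692 and 1749.7 FPKM in IMX606, against 2038 and 2091 FPKM in IMX372. The groups did not overlap, but the differences of -0.12 in IMX605 (limma adjusted p = 0.347) and -0.26 in IMX606 (limma adjusted p = 0.0561) did not pass. In IMX606 it was called lower with equal FPKM sums (-0.28, adjusted p = 0.0432) and by voom (-0.26, adjusted p = 0.0369). The Gcn4 protein level is set mainly by translation and protein turnover, which these data do not measure.

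The isoenzyme pairs were followed as ratios within a library, on which a scaling factor has no effect. BAT2 over BAT1 was 0.0707 and 0.0941 in IMX605 and 0.0601 and 0.0677 in IMX606, against 0.0322 and 0.0295 in IMX372. ARO3 over ARO4 was 0.604 and 0.619 in IMX605 and 0.574 and 0.536 in IMX606, against 0.337 and 0.365 in IMX372. LEU4 over LEU9 was 3.12 and 3.43 in IMX605 and 2.84 and 3.06 in IMX606, against 2.46 and 2.22 in IMX372. Every ratio, as written here, was higher in the 4 single-locus cultures than in both of IMX372. The direction depends on which gene was set on top. BAT2 and ARO3 are the less abundant of their pairs and LEU4 the more abundant, so the shared direction is no result. Each two-sided exact permutation test against IMX372 gave p = 0.333, the smallest that 2 cultures against 2 allow, so this test cannot decide the question. Lack of overlap was common: 31.5% of tested genes lay above IMX372 in IMX605 and 25.7% in IMX606. No such share was worked out for ratios of other gene pairs. In log2 terms the shifts against IMX372 were 1.40 in IMX605 and 1.05 in IMX606 for BAT2 over BAT1, 0.80 in IMX605 and 0.66 in IMX606 for ARO3 over ARO4, and 0.48 in IMX605 and 0.33 in IMX606 for LEU4 over LEU9.

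A further ratio was added after the values had been seen. SER3 and SER33 are the isoenzymes of the first step of serine synthesis, and SER3 over SER33 was 0.913 and 0.991 in IMX605 and 0.823 and 0.938 in IMX606, against 0.432 and 0.441 in IMX372. The SER3 over SER33 values did not overlap between the single-locus strains and IMX372. As this pair was chosen after its values were seen, it adds no support to the shifts of the other pairs.

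**Figure D3:**
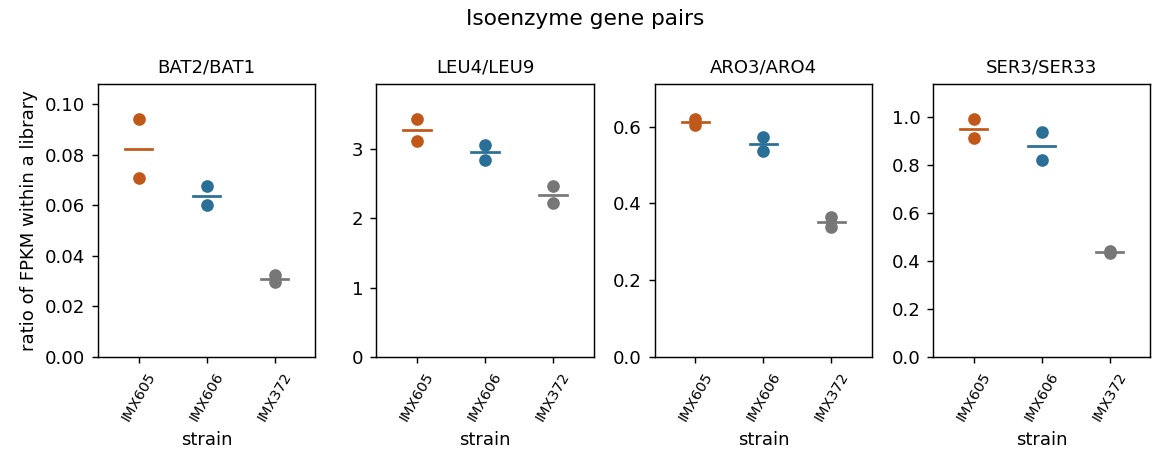
Ratio of FPKM of the gene pairs within each library, with dots for libraries and bars for strain means (n = 2 each), on axes that start at 0. BAT2 over BAT1 lies between 0.0601 and 0.0941 in the single-locus strains and between 0.0295 and 0.0322 in IMX372.

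The labels cite no earlier deposit for the IMX605 and IMX606 libraries. In the comparison of these strains IMX372 entered only through the shared estimate of the spread, and leaving out either IMX372 library left 6 of all tested genes called in place of 11. The 40 differences lay between -0.21 (TRP3) and 0.28 (ILV6), with standard errors of 0.09 to 0.28. Of the 40, 30 were negative, among them all 8 arginine genes, from -0.15 to -0.05, and 0 passed. The share of negative differences over all tested genes was not worked out. In 2 members both IMX605 values lay above both of IMX606, and in 9 both lay below. Of all tested genes, 15.7% lay above and 12.7% below in this way. Without IMX606 R8 the median over the 40 genes was -0.01, beside -0.06 with it, and ARG1 (0.02), ARG4 (0.03) and CPA1 (0.14) were positive. Over all tested genes the median was 0.02 both with and without R8. The largest differences in size after ILV6 were those of BAT2 at 0.26 (SE 0.16) and TRP3 at -0.21 (SE 0.12). Within strains, the median gap between the cultures over the 40 genes was 0.06 in IMX605, 0.14 in IMX606 and 0.10 in IMX372, beside 0.10 in IMX605, 0.14 in IMX606 and 0.14 in IMX372 over all tested genes.

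Gene length moved with the difference between the library sets. Tested genes of 1000 to 2000 bases, a class that holds 27 of the 40 members, had a median difference of -0.11 in IMX605 and -0.12 in IMX606. For genes over 4000 bases the medians were 0.32 in IMX605 and 0.30 in IMX606. Genes of up to 1000 bases, a class with 7 members, had medians of 0.004 in IMX605 and -0.06 in IMX606, so the medians did not rise steadily with length. Between IMX605 and IMX606 the median was 0.05 up to 1000 bases and 0.01 for 1000 to 2000 bases. It was -0.02 for 2000 to 3000 bases, -0.03 for 3000 to 4000 bases and 0.02 for genes over 4000 bases. With a length trend removed from each library, 7 members were higher and 1 lower in IMX605, and 8 higher and 1 lower in IMX606, the lower one being ARO4 in both. This is 20.0% of the members in IMX605, where 28.1% of all tested genes were called in that setting, and 22.5% in IMX606, where 19.8% were. HIS1, ILV3 and HOM6, the other falls, then no longer passed, and ARG4 (0.34, adjusted p = 0.0433) and ORT1 (0.36, adjusted p = 0.0394) passed in IMX606.

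**Figure D4:**
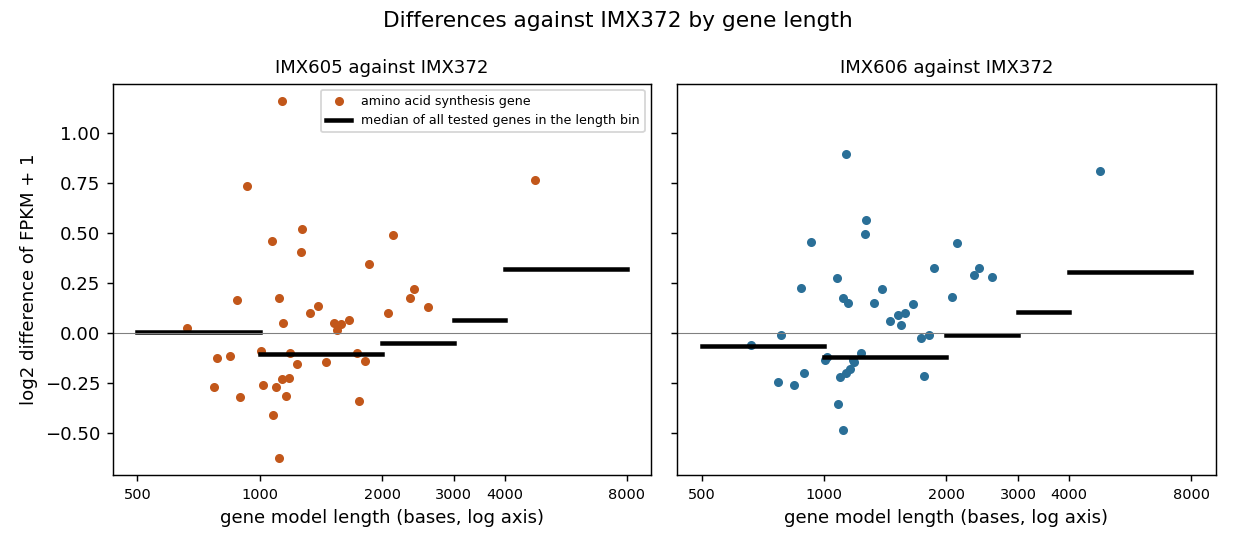
Log2 difference against IMX372 by gene model length, on a log axis, with dots for the 40 genes and black bars for the median of all tested genes in a length class. For genes of 1000 to 2000 bases the medians lie at -0.11 in IMX605 and -0.12 in IMX606, and above 4000 bases at 0.32 in IMX605 and 0.30 in IMX606.

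Around these pathways, 10 further synthesis enzymes of the same amino acids were listed, of which 9 were tested. In each single-locus strain 2 rose and 2 fell, or 44.4%. Of all tested genes, 30.0% were called in IMX605 and 23.9% in IMX606. Neither this list nor those below were tested against these shares. ARO9, an aromatic aminotransferase with 4.67 and 6.42 FPKM in IMX605 and 4.32 and 6.10 FPKM in IMX606, against 2.76 and 2.85 FPKM in IMX372, rose by 0.77 in IMX605 and 0.69 in IMX606. An abundant neighbour is transcribed from the other strand, and the ARO9 values are uncertain for that reason. PHA2, prephenate dehydratase, fell by 0.40 in IMX605 and 0.38 in IMX606, and AAT1, the mitochondrial aspartate aminotransferase, fell by 0.38 in IMX605 and 0.34 in IMX606. In IMX606 the PHA2 call held in 6 and the AAT1 call in 5 of 17 alternative settings, and with the length trend removed both ended in both strains (PHA2 adjusted p = 0.0606 in IMX605 and 0.136 in IMX606, AAT1 0.0557 in IMX605 and 0.136 in IMX606). LEU2, the enzyme after LEU1 and a common marker gene, has several gene models and was left out of the count. It is named after its values were seen: its model on chromosome 3 had 158.2 and 184.5 FPKM in IMX605 and 152.4 and 169.9 FPKM in IMX606, against 33.8 and 29.45 FPKM in IMX372. The model on chromosome 7 read 0.408 and 0.609 FPKM in IMX605 and 0.584 and 0.342 FPKM in IMX606, against 4.02 and 2.96 FPKM in IMX372. The chromosome 7 model rested on as few as 8 reads in a library. Reads could be split between these models, which was not tested.

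Of 14 genes for serine, glycine, proline, asparagine and alanine, 3 rose and 3 fell in IMX605, and 3 rose and 2 fell in IMX606. These are 42.9% in IMX605 and 35.7% in IMX606, beside 30.0% (IMX605) and 23.9% (IMX606) of all tested genes. SER33 fell by 0.68 in IMX605 (limma adjusted p = 0.000623) and 0.53 in IMX606 (limma adjusted p = 0.00413). SER3 rose by 0.44 in IMX605 (limma adjusted p = 0.0290) and 0.48 in IMX606 (limma adjusted p = 0.0234). ALT1, alanine transaminase, rose by 0.58 in IMX605 and 0.42 in IMX606, and GLY1, the threonine aldolase that makes glycine, by 0.38 in IMX605 and 0.41 in IMX606. SER3 and SER33 are 85.6% identical over 1250 bases, and their FPKM moved in opposite directions.

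Among 17 regulator genes, of which 16 were tested, 3 rose and 1 fell in IMX605 and 2 rose in IMX606. These are 25.0% in IMX605 and 12.5% in IMX606, beside 30.0% (IMX605) and 23.9% (IMX606) of all tested genes. PCL5, the cyclin that directs the degradation of Gcn4, had 225.7 and 249.2 FPKM in IMX605 and 216.0 and 184.8 FPKM in IMX606, against 121.2 and 137.6 FPKM in IMX372. It rose by 0.87 in IMX605 (limma adjusted p = 0.000257) and 0.63 in IMX606 (limma adjusted p = 0.00311), and both calls held in all 17 alternative settings. GCN1, which acts with the Gcn2 kinase, rose by 0.60 in IMX605 and 0.56 in IMX606 and is 8019 bases long. With the length trend removed it stood at 0.08 in both strains (adjusted p = 0.619 in IMX605 and 0.645 in IMX606). Of the genes for subunits of the exchange factor eIF2B, GCD7 rose by 0.54 and GCD6 fell by 0.30 in IMX605, a call that held in 8 of 17 alternative settings for GCD6 and 13 for GCD7.

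Of 9 genes that break down the same amino acids, 3 rose and 1 fell in IMX605, and 2 rose and 1 fell in IMX606. These are 44.4% in IMX605 and 33.3% in IMX606, beside 30.0% (IMX605) and 23.9% (IMX606) of all tested genes. ARO10, a decarboxylase of aromatic amino acid breakdown, had 1.93 and 2.72 FPKM in IMX605 and 1.26 and 2.82 FPKM in IMX606, against 18.3 and 22.0 FPKM in IMX372. It fell by 2.67 in IMX605 (limma adjusted p = 1.19e-05) and 2.84 in IMX606 (limma adjusted p = 7.96e-06). CAR1, arginase, rose by 0.83 in IMX605 and 0.81 in IMX606, and CAR2, ornithine transaminase, by 1.79 in IMX605 and 1.59 in IMX606. The more abundant LSM3 lies on the other strand within 500 bases of CAR2, which leaves the CAR2 values uncertain. CHA1, a serine and threonine deaminase, rose by 0.60 in IMX605.

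Of 12 permease genes, of which 11 were tested, 2 rose and 1 fell in IMX605, and 2 rose in IMX606. These are 27.3% in IMX605 and 18.2% in IMX606, beside 30.0% (IMX605) and 23.9% (IMX606) of all tested genes. CAN1, the arginine permease, on chromosome 5, had 9.16 and 9.78 FPKM in IMX605 and 119.3 and 118.8 FPKM in IMX606, against 93.1 and 107.6 FPKM in IMX372. It fell by 3.27 in IMX605 (SE 0.11, limma adjusted p = 6.23e-09) and stood at 0.25 in IMX606 (limma adjusted p = 0.137). CAN1 also fell by 3.52 in IMX605 against IMX606 (limma adjusted p = 7.36e-09), while the 8 arginine synthesis genes did not pass in that comparison. The single locus of IMX605 lies on the same chromosome as CAN1, and whether it bears on the CAN1 values was not tested. The models named BAP2 and BAP3, permeases of branched-chain amino acids, both rose. BAP2 differed from IMX372 by 1.00 in IMX605 and 0.84 in IMX606, and BAP3 by 0.79 in IMX605 and 0.73 in IMX606. With the length trend removed BAP2 stood at 0.76 in IMX605 (adjusted p = 0.0390) and at 0.60 without a call in IMX606 (adjusted p = 0.102), where the call also ended without either IMX372 library. The BAP2 model spans 4573 bases, beside 1815 for BAP3, and its neighbour TAT1 has 0 models of its own. The rise of this model therefore cannot be credited to BAP2 alone.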

How the data were processed

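Poly(A) RNA of 6 libraries from 3 strains was measured. FPKM values per gene model were used as deposited by the authors, together with the deposited gene lengths (an other column, in bases). Per the submitters' processing notes the tools were STAR 2.5.4a, SAMtools, featureCounts, edgeR and DESeq2. No source used here gives their roles, the strand setting or a build name. Gene models lie on CEN.PK113-7D sequences, as their deposited names show. At a tolerance of 0.01 reads, 100% of values gave whole reads, which gave the depths and the voom alternative.

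The FPKM were kept at their deposited scaling, filtered at a mean of at least 1 FPKM (5459 of 5625 genes) and tested with limma 3.58.1 in R 4.3.3 on log2(FPKM + 1), with 1 mean per strain, an intensity trend and Benjamini-Hochberg adjustment over all tested genes. All 6 libraries shared 1 estimate of the spread, with 3 residual degrees of freedom. The fit was also run on simulated reads. These held neither a difference between library sets nor a length trend, so that run does not cover either. Alternatives changed the pseudocount, filter, scaling (median-of-ratios factors were 0.970 to 1.05), samples, trend or test, left out each library in turn, or removed a trend on gene length; that last one was chosen after seeing the data.

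Named were all 40 members, with every library's value for those called, the isoenzyme pairs and GCN4, and up to 4 called genes of each other list with the smallest adjusted p; HIS3, ILV2, ILV6, HOM2, ARG3, THR1, LEU2 and URA3 are given in full after their values were seen. The members and lists were chosen with earlier results of these data known. Copies were searched with BLAST 2.17.0 in the S288C reference, at 95% identity over 200 bases. A planned promoter motif search was not run, and sequences are not analysed here. The values of 1 gene of the other lists are not reported here, though the list's counts hold it. Nothing in the labels ties a library to a replicate number. The limma p-values set a difference against the spread between cultures within the 3 strains. That spread was drawn towards the spread of all tested genes at a similar level (median prior degrees of freedom 8.38, beside 3 residual).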

Additional observations from a re-analysis of the deposited data

Results flagged for a closer look

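CAN1, the arginine permease gene, changed differently in the single-locus strains. Its log2 difference from IMX372 was -3.27 in IMX605 and 0.25 in IMX606, and the difference between these, tested by limma as IMX605 against IMX606, was -3.52 (SE 0.11, adjusted p = 7.36e-09, n = 2 cultures each). Both IMX605 cultures lay below all 4 others. CAN1 lies on chromosome 5, which also carries the single locus of IMX605, and whether that locus bears on the CAN1 values was not tested.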

How the results depend on the processing

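With 2 cultures per strain, calls of small differences can depend on single libraries. Leaving out a library left 1 culture in its strain, so a call could end with the difference little moved. HIS1 in IMX605, at -0.32, stood between -0.34 and -0.30 on leaving out any 1 of the 4 libraries compared. THR1 in IMX606, at 0.27, moved more, to 0.02 without R13 and 0.53 without R8. Of 2040 values under alternatives, 1948 kept their side of the threshold, 56 lost a call and 36 gained one. Sign changes of values not called in either setting were not counted as reversals. Most of the 2040 values had no call to lose. The main fit called 10 of the 40 members in IMX605 against IMX372, 9 in IMX606 against IMX372 and 0 between IMX605 and IMX606. Against IMX372, the number of lower members in IMX605 was 4 (817). Brackets hold the number of lower genes among all tested genes in the same setting. It was 2 with median-of-ratios factors (762), 7 with equal FPKM sums (1018), 7 with quantile normalization (909) and 6 by voom (847). With only the 2 strains compared it was 6 (965). With the length trend removed, a setting chosen after seeing the data, it was 1 (692). In IMX606 the number was 2 (700). It was 1 without a filter on low values (553), with median-of-ratios factors (558) and with only the 2 strains compared (571). It was also 1 without the trend (597) and with the length trend removed (447), and it was 3 with equal FPKM sums (782) and by voom (728). Leaving out 1 library gave 3 to 8 higher and 1 to 6 lower genes in IMX605, lowest higher counts without R12 or DSE002, and 3 to 7 higher and 0 to 3 lower genes in IMX606, lowest without DSE002. The share of all tested genes called moved as well, from 14.7% (without DSE002) to 35.6% (without R8) in IMX605 and from 10.9% (without DSE002) to 23.0% (without R8) in IMX606. Between IMX605 and IMX606 it gave 0 to 1 higher genes (ILV6, without R13) and 0 lower, while all tested genes called went to 97 without R13, beside 11. The causes were not tested. No paired analysis was possible because the column names carry no replicate number.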
